A study of Mus musculus with 11 samples.

Results

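A set of 8 genes, chosen by their symbols in the count files, was followed in ribosome-bound RNA of mouse cerebellum, out of 55421 genes counted. They are the pore-forming sodium channel genes Scn1a, Scn2a and Scn8a, the auxiliary subunit genes Scn2b and Scn4b, the intracellular fibroblast growth factor genes Fgf12 and Fgf14, and the ankyrin gene Ank3. All 8 were found once each, and all 8 passed the filter on low counts that left 13375 genes for testing. The choice went by gene names, but it was made with earlier results of these data known.

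The KO group held 4 animals with the genotype Pcp2Cre;Tie2flox/flox;Rpl22HA/HA, and the WT group 7 animals with the genotype Pcp2Cre;Rpl22HA/HA, all taken on postnatal day 56. Both groups carried the Cre driver and the tagged ribosomal protein Rpl22, so WT here means intact Tie2 alleles and not a mouse without transgenes. Pcp2Cre acts in Purkinje cells, the output neurons of the cerebellar cortex, and the tagged ribosomes were pulled down with their RNA from whole cerebellum. Each library came from 1 animal, and is named by its group and animal tag. Batch 1 held KO F371, KO M374 and WT M379, batch 2 held KO M390 and WT M386, and batch 3 held KO M456 with WT F473, M476, M477, M479 and M480.

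Voltage-gated sodium channels carry the inward current of the action potential. A large pore-forming alpha subunit is joined by small beta subunits with one membrane span, and intracellular fibroblast growth factors, which are not secreted, bind the tail of the alpha subunit and shift its inactivation. Ankyrin-G, the product of Ank3, anchors the channels at the axon initial segment, where spikes start. Purkinje cells fire without input, and they have a resurgent sodium current, which flows when channels reopen as the membrane repolarises. This current is known for its dependence on Scn8a and has been linked to the tail of the Scn4b protein.

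Reads in genes numbered 2583227 to 4199299 per KO library and 4087197 to 5142671 per WT library. The 8 genes together took 0.156% to 0.201% of these reads in KO libraries and 0.157% to 0.218% in WT libraries. Tek, which encodes Tie2, had 0, 7, 0 and 14 reads in KO F371, M374, M390 and M456, against 0 to 40 reads in the WT libraries, so these counts did not check the genotype labels. Purkinje cell markers summed to 8349 to 11349 CPM (the usual depth-scaled count, here with TMM factors) in KO libraries and 8682 to 10514 CPM in WT libraries, with 4 of 22 tested genes higher in KO and 4 lower, where 10.9% of all genes were higher and 13.4% lower. Granule cell markers summed to 680.3 to 1974 CPM in KO libraries and 508 to 1012 CPM in WT libraries, with 11 of 15 tested genes higher and 0 lower. Bergmann glia and astrocyte markers summed to 947 to 1817 CPM in KO and 856 to 1081 CPM in WT libraries, with 8 of 14 higher, and oligodendrocyte markers to 337 to 1031 CPM in KO and 287 to 752 CPM in WT libraries, with 4 of 13 higher. Markers of interneurons and unipolar brush cells summed to 459.8 to 794 CPM in KO and 478 to 608 CPM in WT libraries, with 5 of 11 higher and 1 lower. Those of microglia summed to 25.2 to 129.95 CPM in KO and 37.4 to 69.4 CPM in WT libraries, with 3 of 9 higher, and those of endothelial and mural cells to 26.5 to 144 CPM in KO and 21.7 to 153 CPM in WT libraries, with 1 of 9 higher. The part of these cell types in the differences below was not tested, and a fall in such data cannot tell fewer cells from less RNA per cell.

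The genes lie on 6 chromosomes of GRCm38, and 4 of them form neighbouring pairs. Scn2a (chromosome 2, 65620764 to 65767447) and Scn1a (chromosome 2, 66270781 to 66440837) are 503 kb apart with 5 annotated genes between them. Scn2b (chromosome 9, 45117876 to 45130070) and Scn4b (chromosome 9, 45138624 to 45154155) are 8.55 kb apart with 0 genes wholly between. The long non-coding RNA gene Gm10684 (45107176 to 45135606) spans Scn2b and reaches into this gap. Scn8a spans 176 kb of chromosome 15 (100869863 to 101045938), Fgf12 595 kb of chromosome 16 (28157783 to 28753243), Fgf14 703 kb of chromosome 14 (123974441 to 124677686) and Ank3 494 kb of chromosome 10 (69533486 to 70027436). Other annotated genes overlap the span of all but Scn2a and Scn4b, mostly long non-coding RNAs and pseudogenes, and for Fgf14 also one end of the coding gene Itgbl1. The strand setting of the counting is not given in the sources used here, so reads shared with these neighbours cannot be told apart.

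The 250 bases upstream of the annotated start are shown for Scn2b and Scn4b, whose levels followed different patterns despite their closeness, and for Scn1a, whose pattern over batches resembled that of Scn4b. The sequences are from RefSeq on GRCm38.p6, 5′ to 3′ on the strand of the gene, and capitals mark the E-box letters CANNTG, searched on both strands, which read the same on each.
Scn2b, chr9:45117626-45117875, plus strand: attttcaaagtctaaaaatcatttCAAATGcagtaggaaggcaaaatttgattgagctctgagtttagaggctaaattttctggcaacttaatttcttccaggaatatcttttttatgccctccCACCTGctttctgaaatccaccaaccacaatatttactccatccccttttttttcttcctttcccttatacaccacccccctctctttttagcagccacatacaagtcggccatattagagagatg
Scn4b, chr9:45138374-45138623, plus strand: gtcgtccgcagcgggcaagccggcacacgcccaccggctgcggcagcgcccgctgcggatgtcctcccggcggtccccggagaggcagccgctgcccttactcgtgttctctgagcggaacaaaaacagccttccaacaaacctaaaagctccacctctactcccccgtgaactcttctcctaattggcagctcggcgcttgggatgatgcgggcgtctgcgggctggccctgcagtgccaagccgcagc
Scn1a, chr2:66440838-66441087, minus strand: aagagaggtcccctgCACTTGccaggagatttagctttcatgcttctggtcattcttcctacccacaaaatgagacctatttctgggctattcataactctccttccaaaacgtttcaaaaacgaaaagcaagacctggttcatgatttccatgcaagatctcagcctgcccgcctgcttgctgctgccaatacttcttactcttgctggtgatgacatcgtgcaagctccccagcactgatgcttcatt
The G and C content was 38.4% for Scn2b, 66% for Scn4b and 46.8% for Scn1a, beside a median of 52.4% over 32851 windows of this length. Scn2b held 2 E-boxes, Scn1a held 1 and Scn4b held 0, and 66.2% of all windows held at least 1. None of these 3 windows held TATAAA (12.4% of all windows), GGGCGG (32.7%) or TGACG (17.8%) on either strand.

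In KO against WT, Ank3 fell, and the 7 other genes did not pass the test. Of all genes tested, 24.4% passed at an adjusted p under 0.05 in either direction, 10.9% higher and 13.4% lower in KO, so the share of 1 in 8 was not above that of all genes. At an unadjusted p under 0.05 stood Ank3, Scn2b and Fgf12, 3 of the 8, beside 39.5% of all genes. The median log2 fold change of the 8 genes was -0.01, beside -0.02 over all genes tested, and the median size without sign was 0.21 beside 0.40. The values of KO and WT overlapped in each of the 8 genes, so 0 of 8 were free of overlap, beside 13.0% of all genes (6.20% with KO higher and 6.77% with KO lower). The within-batch ratios had 1 sign in all 3 batches for Scn1a, Scn2a and Ank3, and 48.5% of all genes did so.

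**Figure D1:**
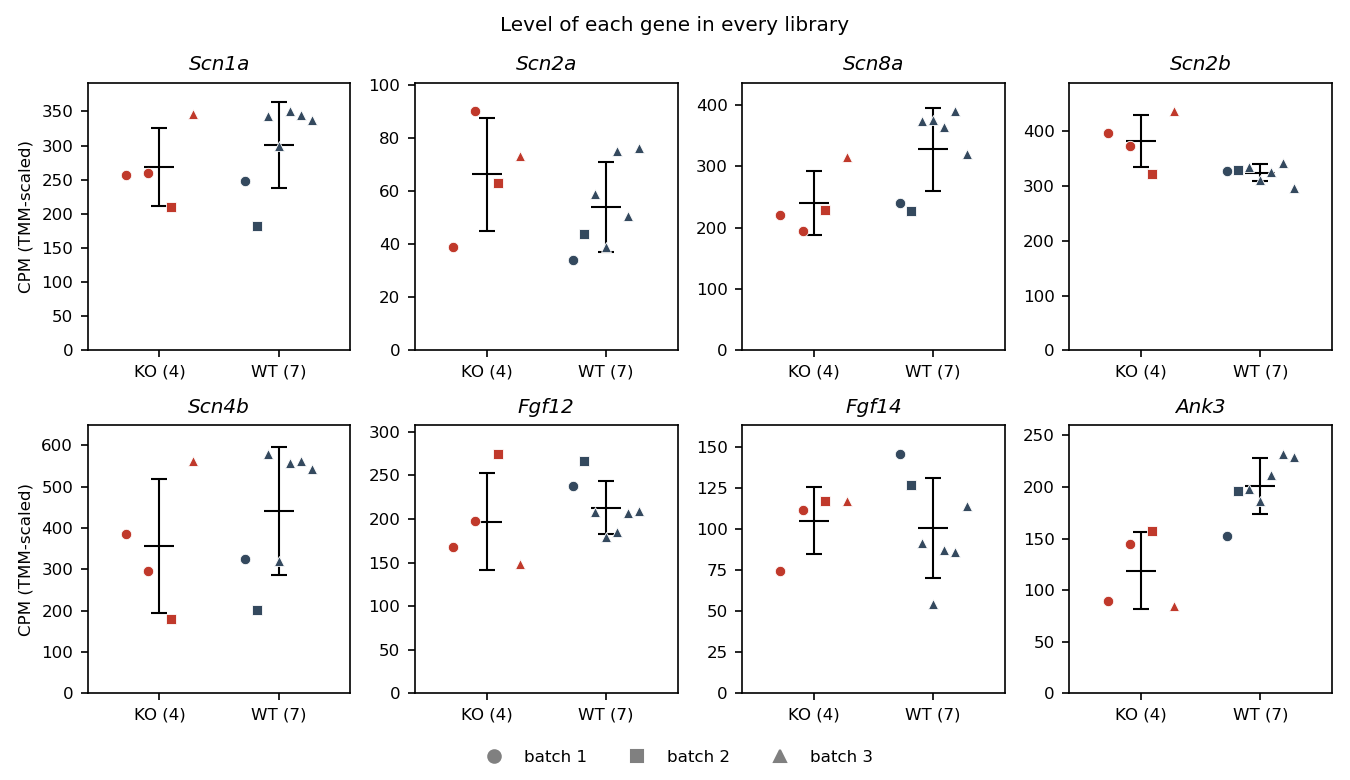
Level of each of the 8 genes in TMM-scaled CPM (vertical axis, from 0) in 4 KO and 7 WT libraries, 1 point per library, with marker shape for batch and bars for mean ± SD. The KO and WT points overlap in every panel. Batch 3 points lie highest for Scn8a, in both groups, and the KO points of Ank3 reach 157 CPM at most.

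Among the pore-forming subunits, Scn1a (ENSMUSG00000064329), the channel gene whose loss causes Dravet epilepsy in humans, had 257 and 260 CPM in KO F371 and M374, 210.3 CPM in KO M390 and 347 CPM in KO M456. The WT libraries had 248 CPM in M379, 183 CPM in M386 and 299 to 350.4 CPM in batch 3, with a median of 337. The libraries sorted by batch and not by genotype, with both batch 2 libraries lowest. The log2 fold change was 0.09 ± 0.09 (SE, 95% interval -0.09 to 0.28; adjusted p = 0.46 by the quasi-likelihood test of edgeR, fitted with batch and genotype), the smallest error among the 8 genes.

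Scn8a (ENSMUSG00000023033), which encodes the main channel of the mature initial segment, had 221 and 195 CPM in KO F371 and M374, 229 CPM in KO M390 and 315 CPM in KO M456. In WT it had 241 CPM in M379, 227 CPM in M386 and 321 to 389 CPM in batch 3. The 5 WT libraries of batch 3 were above all other libraries, and KO M456 stood just below them. The group means of 240.0 ± 51.9 CPM in KO and 327 ± 67.5 CPM in WT (SD, n = 4 and 7) are not adjusted for batch, and 5 of the 7 WT libraries are of batch 3. With batch as a term the log2 fold change was -0.15 ± 0.09 (SE, interval -0.36 to 0.05; edgeR adjusted p = 0.24).

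Scn2a (ENSMUSG00000075318), a channel gene of early axons and unmyelinated fibres, had the lowest counts of the 8, with 135 to 385 reads per library. KO F371 had 39.2 CPM, KO M374 90.3 CPM, KO M390 63.1 CPM and KO M456 73.5 CPM, against a lowest of 34.2, a median of 50.7 and a highest of 76.4 CPM in WT libraries. The 2 KO animals of batch 1 stood far apart, with one near the lowest WT library and the other above every WT library. The log2 fold change of 0.56 ± 0.27 (SE, interval -0.02 to 1.13; edgeR adjusted p = 0.14) was positive in each batch, with within-batch ratios of 0.91, 0.52 and 0.29 on the log2 scale. With 1 library left out it ran from 0.36 (without KO M374) to 0.74 (without KO M456), and it passed in none of these edgeR fits (adjusted p from 0.062 to 0.42). With a purity score added to the fit, the mean log2 CPM of Purkinje markers minus that of granule cell and glial markers, it was -0.55 (adjusted p = 0.74).

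The read ratio of one gene to another within a library is free of library scaling, and 6 ratios among the genes were compared. Scn8a to Scn1a was 0.859 and 0.752 in KO F371 and M374 against 0.971 in WT M379, 1.09 in KO M390 against 1.24 in WT M386, and 0.907 in KO M456 against 0.951 to 1.25 in WT of batch 3. The KO libraries thus had the lower ratio in each batch. The within-batch difference, averaged over batches with weights for their numbers of animals, was -0.25 on the log2 scale (two-sided exact permutation p = 0.0556 over 36 arrangements within batches, adjusted p = 0.17 over 6 ratios). The smallest p these arrangements allow is 0.0278, and no ratio standing alone at that p would pass the adjustment over 6 ratios. Scn2a to Scn8a differed by 0.69 (exact permutation p = 0.17, adjusted p = 0.30) and Scn2a to Scn1a by 0.44 (exact permutation p = 0.22, adjusted p = 0.30).

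Of the auxiliary subunits, Scn2b (ENSMUSG00000070304), whose protein is bound to the alpha subunit by a disulfide bond, was the steadiest gene of the set. KO F371, M374, M390 and M456 had 396, 373, 322 and 436 CPM, against a lowest of 295, a median of 327 and a highest of 341 CPM in WT libraries. The 3 KO libraries of batches 1 and 3 were above every WT library, and the KO library of batch 2 was within the WT range. The coefficient of variation over the WT libraries was 4.81%, and counting error alone gives 2.45% to 2.74% per WT library. The log2 fold change was 0.26 ± 0.09 (SE, interval 0.06 to 0.45; edgeR adjusted p = 0.057), with within-batch ratios of 0.23, -0.03 and 0.44. It passed in edgeR with the size factors of DESeq2 (0.27, adjusted p = 0.047), with library totals alone (0.25, adjusted p = 0.043), without batch 2 (0.37, adjusted p = 0.0077), and also without KO M374 (adjusted p = 0.0496) or WT M476 (adjusted p = 0.032). Without KO M456 it was 0.12 (edgeR adjusted p = 0.53), and 0.059 once the library total entered the fit (adjusted p = 0.86).

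Scn4b (ENSMUSG00000046480), the subunit gene tied to resurgent current, varied most. KO F371, M374, M390 and M456 had 385.97, 297, 179.8 and 562 CPM. The WT libraries had 326 CPM in M379, 201 CPM in M386, 321 CPM in M476 and 542 to 579 CPM in the remaining 4 of batch 3. KO M456 lay within the range of its batch, and the lowest library of each group was that of batch 2. With batch as a term KO differed from WT by 0.04 ± 0.15 on the log2 scale (SE, interval -0.29 to 0.37; edgeR adjusted p = 0.87). The read ratio of Scn4b to its neighbour Scn2b ran from 0.558 to 1.29 in KO and from 0.611 to 1.83 in WT libraries, and differed by -0.21 on the log2 scale within batches (exact permutation, two-sided, p = 0.25, adjusted p = 0.30).

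Neither of the intracellular growth factor genes passed the test. Fgf12 (ENSMUSG00000022523), variants of which cause an early epilepsy in humans, had 167, 197, 274 and 149 CPM in KO F371, M374, M390 and M456. The WT libraries had a lowest of 179, a median of 208 and a highest of 266 CPM. KO F371 and M456 were below every WT library, and KO M390 was above every WT library. The log2 fold change was -0.28 ± 0.11 (SE, interval -0.52 to -0.04; edgeR adjusted p = 0.077), with within-batch ratios of -0.38, 0.04 and -0.41. Without KO M456 it was -0.20 (edgeR adjusted p = 0.39), and with the library total in the fit -0.064 (adjusted p = 0.87). Without KO M390, WT M386 or the whole of batch 2 it passed, at -0.37 in each case (edgeR adjusted p = 0.020 each). These are nearly the same fit, as a library left alone in its batch adds nothing on genotype.

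Fgf14 (ENSMUSG00000025551), the gene mutated in a spinocerebellar ataxia, had 74.6 CPM in KO F371, 112 CPM in KO M374, 117 CPM in KO M390 and 117 CPM in KO M456. The WT libraries had 145 CPM in M379, 127 CPM in M386 and 54.2 to 114 CPM in batch 3. Both KO libraries of batch 1 were below their WT library, and the KO library of batch 3 was above all 5 of its WT libraries. The within-batch ratios were -0.64, -0.11 and 0.43, and the log2 fold change was -0.06 ± 0.22 (SE, interval -0.52 to 0.39; edgeR adjusted p = 0.85). The read ratio of Fgf14 to Fgf12 differed by 0.23 on the log2 scale (two-sided exact permutation p = 0.31, adjusted p = 0.31).

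Ank3 (ENSMUSG00000069601), the anchor of the initial segment, fell in KO. KO F371 had 89.1 CPM, KO M374 144 CPM, KO M390 157 CPM and KO M456 84.3 CPM, against 153 CPM in WT M379, 196 CPM in WT M386 and 186 to 232 CPM in the WT libraries of batch 3. Each KO library was below the WT libraries of its own batch, and the groups overlapped through KO M390, which was above WT M379. The mean was 119 ± 37.5 CPM in KO and 201 ± 27.2 CPM in WT (SD, n = 4 and 7). The log2 fold change was -0.72 ± 0.19 (SE, interval -1.13 to -0.31; edgeR adjusted p = 0.016), a level 0.608 times that of WT.

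The fall of Ank3 was uneven over batches, with within-batch log2 ratios of -0.39, -0.31 and -1.32. KO M456, the sole KO library of batch 3, had the lowest purity score of all 11 libraries, 2.56, with KO M374 next at 2.72. Its granule cell markers summed to 1974 CPM, against 713 to 1012 CPM in WT of batch 3. Its Bergmann glia and astrocyte markers summed to 1817 CPM, against 892 to 1081 CPM. Its sum of Purkinje cell markers, 11349 CPM, was the highest too. The part of this make-up in the fall of Ank3 was not tested. KO M456 also had the fewest reads of all 11 libraries, 2583227. With every library thinned at random to that number, the log2 fold change was -0.68 (edgeR adjusted p = 0.017), and 25.5% of all genes passed. Without KO M456 it was -0.36 and did not pass (edgeR adjusted p = 0.25), and 2.43% of all genes passed. Without WT M379, the sole WT library of batch 1, it was -0.88 (edgeR adjusted p = 0.048), and 3.93% of all genes passed. With the library total as a covariate it was -0.17 (adjusted p = 0.75), and with the purity score -1.02 (adjusted p = 0.58). In these fits 0 genes passed, and 1841 and 1021 had an unadjusted p under 0.05. Within each batch both covariates were lower in KO than in WT libraries, so they partly follow genotype. The read ratio of Ank3 to Scn8a differed by -0.62 on the log2 scale (two-sided exact permutation p = 0.0556, adjusted p = 0.17).

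**Figure D2:**
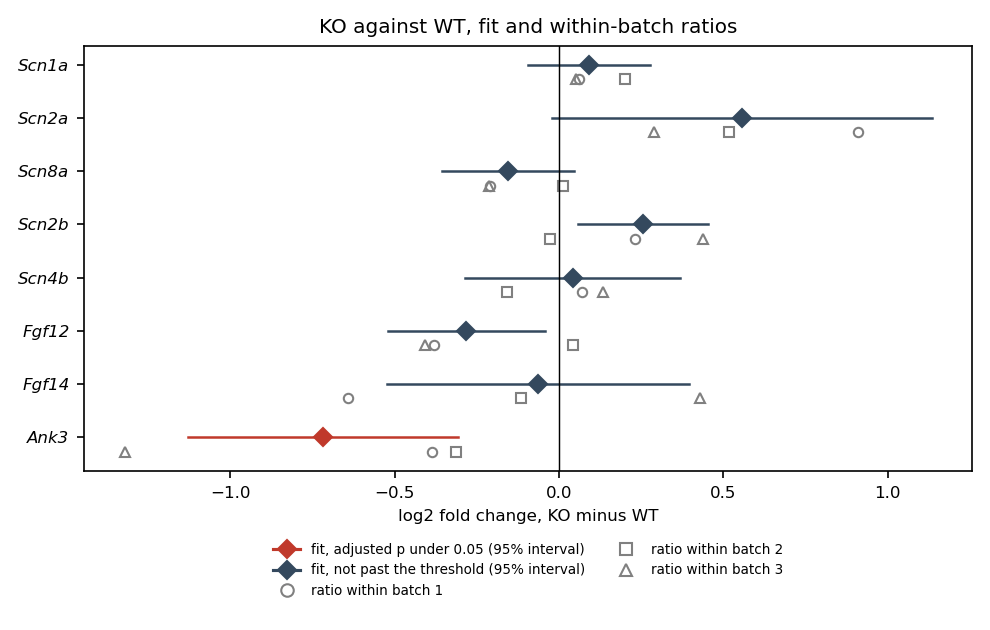
Log2 fold change of KO against WT (horizontal axis) for the 8 genes (rows), with diamonds for the fit with batch as a term, lines for its 95% interval and open markers for the ratio within each batch. The Ank3 diamond at -0.72 is the one past the threshold, and its batch 3 ratio lies at -1.32.

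Levels of some of the genes also differed between batches. A test of the batch term in the same edgeR fit, added after the data were seen, passed for Scn1a, Scn8a, Scn4b and Fgf12, 4 of the 8 genes, beside 12.6% of all genes. It took any difference among the batches together, with edgeR adjusted p = 0.00083 for Scn1a, 0.0020 for Scn8a, 0.00097 for Scn4b and 0.016 for Fgf12. Single batches were not tested against each other. Batch 3 was above batch 1 by 0.45 for Scn1a, 0.63 for Scn8a and 0.65 for Scn4b on the log2 scale. Batch 2 differed from batch 1 by -0.36 for Scn1a, 0.04 for Scn8a and -0.81 for Scn4b. Fgf12 ran the other way, with 0.40 in batch 2 and -0.22 in batch 3, each against batch 1. In the WT libraries alone, batches 1 and 2 have 1 library each, which the fit assumes to vary like the 5 of batch 3. On that assumption Scn1a, Scn8a and Scn4b passed (edgeR adjusted p = 0.0033, 0.0080 and 0.016), where 9.27% of genes did, and Fgf12 did not (0.14).

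Sums of Purkinje cell markers were 9042.7 and 8592 CPM in KO and 9812 CPM in WT of batch 1, 8349 CPM in KO and 8682 CPM in WT of batch 2, and 11349 CPM in KO and 9629 to 10514 CPM in WT of batch 3. Oligodendrocyte markers summed to 561 and 950.4 CPM in KO and 366 CPM in WT of batch 1, to 337 CPM in KO and 287 CPM in WT of batch 2, and to 1031 CPM in KO and 523 to 752 CPM in WT of batch 3. Their part in the batch differences was not tested. A difference of the genotype effect between batches, tested as an interaction in edgeR, passed for 0 of the 8 genes and 0% of all genes. In that edgeR fit Ank3 was the 1 member of the set with an unadjusted p under 0.05 (adjusted p = 0.23), and 2306 of all genes had one.

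**Figure D3:**
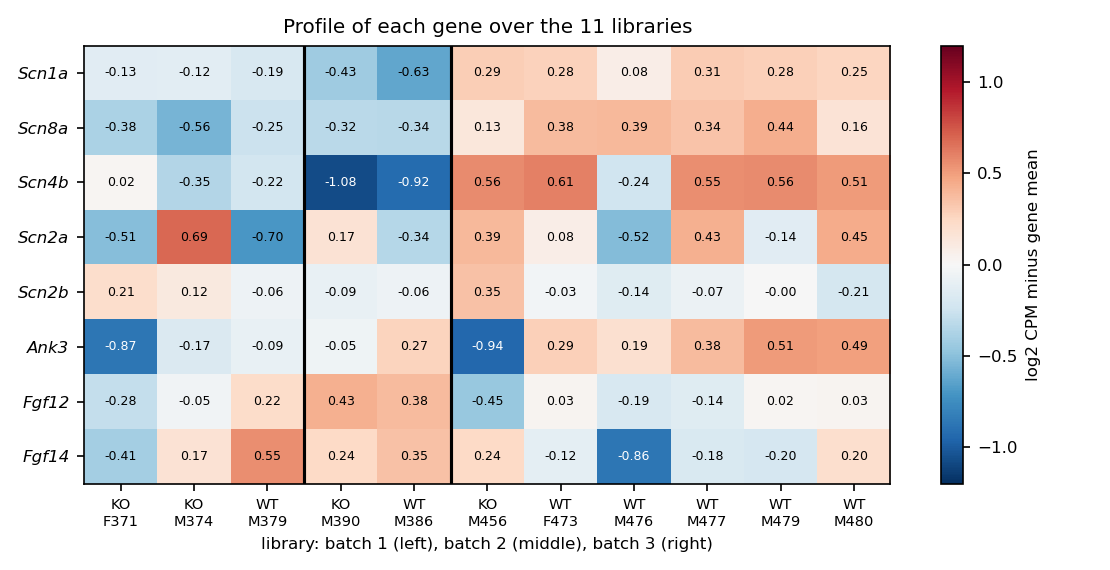
Log2 CPM minus the mean of the gene (colour and printed value) for the 8 genes (rows) in the 11 libraries (columns, grouped by batch, KO left of WT). Scn1a, Scn8a and Scn4b are above their means in batch 3 except Scn4b in WT M476 at -0.24, and Ank3 is lowest in KO M456 at -0.94.

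The likeness of 2 profiles was measured as the root mean square difference of their log2 CPM over the 11 libraries, each gene centred on its mean, as a description with no test. Among the 8 genes Scn1a and Scn8a were the closest pair, at 0.21, then Scn1a and Scn4b at 0.31 and Scn1a and Scn2b at 0.33. The neighbours Scn2b and Scn4b differed by 0.58, and Fgf12 and Scn4b were the farthest pair, at 0.78. Among 8724 other tested genes of at least 20 mean CPM, the nearest to Scn1a were Ppp1r16b (0.07) and the dystrophin gene Dmd (0.10), and the nearest to Scn8a were Fam168a (0.08) and Spns2 (0.09). Scn2b was nearest to Ttyh1 (0.04) and to Rpl22 (0.06), the gene of the tagged ribosomal protein. Rpl22 itself was higher in KO, by 0.36 ± 0.11 on the log2 scale (SE, edgeR adjusted p = 0.025). Scn4b was nearest to Tubgcp6 (0.15) and Aatk (0.16), and Scn2a to Pcdhb16 (0.21) and the receptor phosphatase gene Ptprd (0.22). Fgf12 was nearest to Btbd10 and Atg10 (both 0.09), Fgf14 to Cab39l and Tmem123 (both 0.16), and Ank3 to Fbln7 (0.11) and the exchange factor gene Arhgef4 (0.15). The median over those 8724 genes ran from 0.36 for Scn2b to 0.68 for Scn4b.

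Other sodium channel genes that were listed were scarce or did not pass. Of 8 listed, 2 were tested, and 0 passed by edgeR, 0 of them with an unadjusted p under 0.05. The leak channel gene Nalcn had 91.1 to 113 CPM in KO and 45.4 to 133 CPM in WT libraries, with a log2 fold change of 0.11 ± 0.19 (SE, edgeR adjusted p = 0.70). Scn9a, at 11.6 to 21.4 CPM in KO and 4.96 to 13.2 CPM in WT libraries, had 0.68 ± 0.35 (adjusted p = 0.16). Scn3a had 12 reads over the KO libraries and 37 over the WT libraries, and Scn3b 2 and 36. Scn4a, Scn7a, Scn10a and Scn11a had 0 to 3 reads per library.

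Of the other intracellular growth factor genes, Fgf11 fell to 202 ± 20.6 CPM in KO, against 255 ± 22.0 CPM in WT (SD, n = 4 and 7). The difference was -0.32 ± 0.11 on the log2 scale (SE, edgeR adjusted p = 0.038), negative in each batch at -0.49, -0.19 and -0.26. The call held without KO M390 or WT M386, which give nearly the same fit, and without WT M476. It was lost without any of the other 8 libraries (adjusted p up to 0.26). Fgf13 had 0.709 to 8.61 CPM in KO and 0.465 to 6.78 CPM in WT libraries, too few reads for a narrow estimate (1.04 ± 0.86, SE, adjusted p = 0.39).

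Among 17 genes listed for the scaffold of the initial segment and node of Ranvier, 3 fell and 1 rose. Their median log2 fold change was -0.05, beside -0.02 over all genes. That is 4 of 17 called, beside 24.4% of all genes. Ank2, a second ankyrin gene, fell to 307 ± 11.9 CPM in KO, against 492 ± 115 CPM in WT (SD; log2 fold change -0.49 ± 0.14 SE, edgeR adjusted p = 0.024). Adam22, a receptor of the Lgi proteins, fell by 0.71 ± 0.17 on the log2 scale (SE, adjusted p = 0.0084). The genes of the microtubule end-binding proteins EB1 and EB3, which bind ankyrin-G in the initial segment, went opposite ways: Mapre3 fell by 0.54 ± 0.11 (adjusted p = 0.0039) and Mapre1 rose by 0.54 ± 0.14 (adjusted p = 0.013). KO and WT did not overlap for Ank2, Mapre1, Mapre3 and Sptan1, 4 of the 17, beside 13.0% of all genes.

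The spectrin gene Sptan1 had 98.1 to 193 CPM in KO and 198 to 635.0 CPM in WT libraries, and with -0.67 ± 0.30 (SE, edgeR adjusted p = 0.11) did not pass. Sptbn1 (-0.02 ± 0.41), the cell adhesion gene Nfasc (-0.20 ± 0.12), and Cntn1 (0.04 ± 0.10) did not pass either. Without KO M456, and likewise without WT M379, 0 of the 17 genes passed by edgeR. Ank2 had -0.27 (adjusted p = 0.32), Adam22 -0.63 (0.11), Mapre1 0.34 (0.27) and Mapre3 -0.52 (0.054) on the log2 scale without KO M456.

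Of 13 regulators of sodium channels, 4 rose and 2 fell, with a median log2 fold change of 0.07. That is 6 of 13 called, where 10.9% of all genes were higher and 13.4% lower. Casein kinase 2 phosphorylates alpha subunits at their ankyrin-binding site. The genes of its catalytic subunits rose, Csnk2a1 by 0.89 ± 0.18 and Csnk2a2 by 0.48 ± 0.15 on the log2 scale (SE, edgeR adjusted p = 0.0047 and 0.030), and that of its regulatory subunit, Csnk2b, fell by 0.55 ± 0.17 (adjusted p = 0.028). In KO libraries Csnk2a1 had 107 to 193 CPM, against 57.7 to 106 CPM in WT libraries. Of the 13 genes, Csnk2a1, Csnk2a2 and Nedd4 had no overlap of KO and WT, beside 13.0% of all genes. In batch 2 the log2 ratios of Csnk2a1 and Csnk2b were 0.02 each.

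Nedd4, which encodes a ubiquitin ligase of a family that removes sodium channels from the membrane, fell to 141 ± 16.7 CPM in KO, against 234 ± 25.5 CPM in WT (SD, n = 4 and 7). KO differed from WT by -0.62 ± 0.11 on the log2 scale (SE, edgeR adjusted p = 0.0032), with within-batch ratios of -0.53, -0.49 and -0.77, and the groups did not overlap. Calm2 and Calm3, which encode calmodulin, whose lobes bind the tail of alpha subunits, rose by 0.41 ± 0.12 and 0.32 ± 0.11 (adjusted p = 0.027 and 0.044). Gsk3b (-0.13 ± 0.10), Mef2c (0.20 ± 0.08), Bace1 (0.07 ± 0.11) and the kinase gene Fyn (0.06 ± 0.10) did not pass.

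Without KO M456, 0 of these 13 genes passed by edgeR, with 0.43 for Csnk2a1 (adjusted p = 0.21), 0.54 for Csnk2a2 (0.13), -0.32 for Csnk2b (0.31), -0.52 for Nedd4 (0.061), 0.13 for Calm2 (0.57) and 0.11 for Calm3 (0.61). Without WT M379 2 passed, and without KO M374 3 passed.

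**Figure D4:**
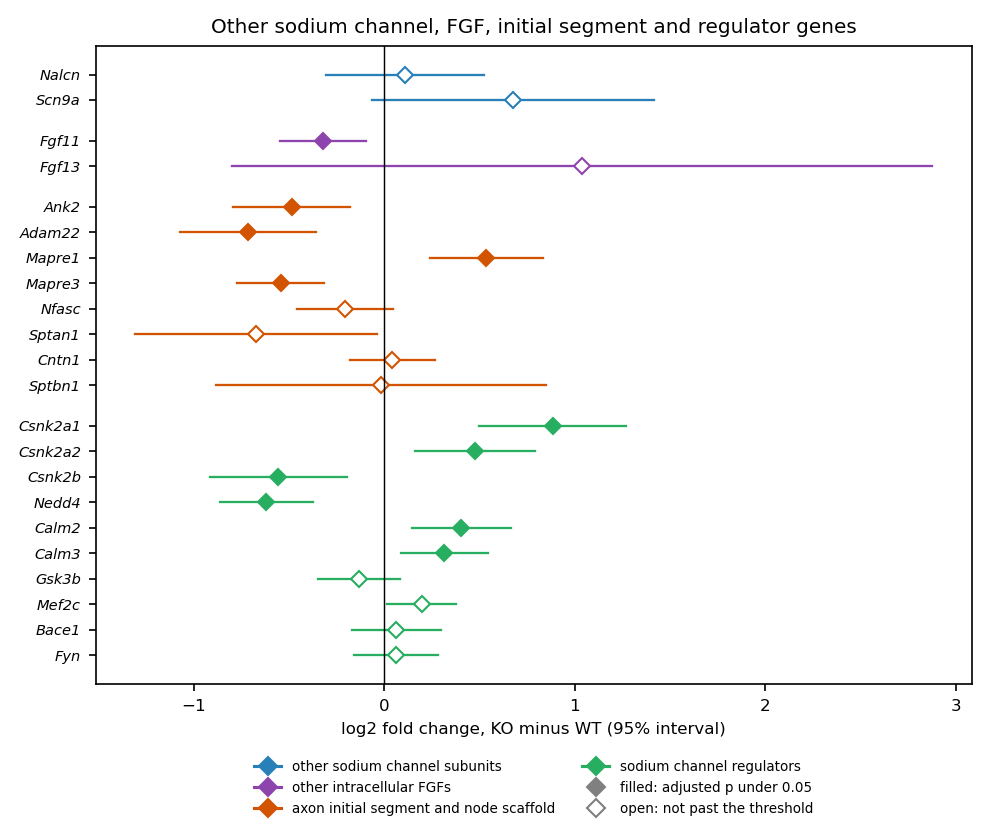
Log2 fold change of KO against WT (horizontal axis) with 95% intervals for genes of 4 other lists (colours), with filled diamonds for an adjusted p under 0.05 and open ones for the rest. Fgf11, Ank2, Adam22, Mapre3, Csnk2b and Nedd4 lie to the left, and Mapre1, Csnk2a1, Csnk2a2, Calm2 and Calm3 to the right of 0.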

How the data were processed

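The authors deposited 1 table of whole-number read counts per gene for each library, made with STAR and HTSeq on GRCm38 per the submitters' processing notes; their versions, counting options, strand setting and any duplicate removal are not given in the sources used. The 5 summary lines that name no gene, 18.3% to 26.1% of all lines' counts, stayed out. The lowest chi-square over its degrees of freedom between any libraries was 2.46, so none was treated as a copy. Labels give the batch (without saying what it marks) and 1 animal per library, and p-values measure the spread between these animals.

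Counts were fitted in edgeR 4.0.16 (R 4.3.3) with filterByExpr, TMM factors, batch and genotype (7 residual degrees of freedom), two-sided, with Benjamini-Hochberg adjustment over 13375 genes and a threshold of 0.05. The method was tested on simulated data. A prior count of 2 went into log2 CPM. Ratios within a batch had a pseudocount of 0.5 CPM. Pair ratios used counts plus 0.5 and all arrangements of genotype within batches. Exon lengths were not used, so levels of different genes are not ranked. The members and lists were chosen with earlier results of these data known. From the other lists every gene past the threshold and up to 4 others with the highest mean CPM are named. Some listed genes are not reported here. Gene positions are from RefSeq GRCm38.p6, matched by symbol for all 8; promoter windows matched 7. Alternatives included DESeq2 1.42.0 and limma 3.58.1 (voom); intervals cover the fit's error only.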

Additional observations from a re-analysis of the deposited data

Results flagged for a closer look

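One library stood apart within its group. Fgf14 in KO F371 was at 74.6 CPM, while the other KO libraries lay from 112 to 117 CPM. Its gap to the nearest library was 0.875 of the range of the group. Each end of 16 groups of values was examined (8 genes in KO and in WT), and chance alone marks about 1 in 20 such groups. Without KO F371 the log2 fold change of Fgf14 was 0.09 (edgeR adjusted p = 0.78).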

How the results depend on the processing

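Of the 8 genes, 1 passed in KO against WT with all libraries. The number was 2 with the size factors of DESeq2, 2 with library totals alone and 2 by the DESeq2 Wald test (Scn2b and Ank3), 3 without batch 2 (Scn2b, Fgf12 and Ank3), and 0 in each of the fits with a covariate, the library total or the purity score. It ranged from 0 (without KO M456) to 3 (without KO M390 or WT M386), with 2 (Scn2b and Ank3) without KO M374 or WT M476, when each library was left out in turn. Ank3 kept its sign in all 23 alternatives and passed in 20. Those without batch 2, KO M390 or WT M386 are nearly the same fit. Without the replicate block, that is without the batch term, the sign turned for Scn1a (-0.17), Scn4b (-0.31), Fgf14 (0.060) and Cntn1 (-0.055), and Ank3 had -0.75 (edgeR adjusted p = 0.0084); no call among the 8 changed. With the purity score it turned for Scn2a (-0.55), Scn8a (0.074), Scn4b (-0.034), Nalcn (-0.33), Fgf13 (-0.96), Cntn1 (-0.092) and Fyn (-0.029). With the library total it turned for Nfasc (0.061), Sptan1 (0.021), Sptbn1 (0.90), Calm2 (-0.025) and Calm3 (-0.050). By limma-voom Sptbn1 was at 0.011. In animals tagged M alone Fgf14 was at 0.087 and Sptbn1 at 0.11. With 1 library left out the values ran from -0.42 to 0.25 for Fgf14, from -0.029 to 0.14 for Scn4b, from -0.28 to 0.40 for Sptbn1, from -0.30 to 0.019 for Gsk3b, from -0.13 to 0.26 for Nalcn and from -0.23 to 0.49 for the ratio of Fgf14 to Fgf12. The cause of these turns was not tested. Of the 17 genes listed for the initial segment and node, 4 passed with all libraries, 7 without the batch term and 0 with either covariate. Of the 13 regulators, 6 passed with all libraries, 3 by limma-voom, 2 in animals tagged M and 0 with either covariate. Over all genes 3257 passed, against 335 without KO M456 and 522 without WT M379. Of the 6 pair ratios 0 passed under each alternative with enough arrangements for an unadjusted p under 0.05. In those arranged within batches, no ratio standing alone could pass the adjustment over the 6. Without batch 2, KO M390, WT M386, WT M379 or KO M456 even the unadjusted p cannot reach 0.05. The number of genes differing between batches was 3 or 4 in all 15 alternatives, 3 (without Fgf12) when KO M390 or KO M456 was left out. Batch 1 holds 1 WT library, batch 2 1 of each group and batch 3 1 KO library, so the genotype effect in any one batch rests on a single library on one side.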
